A study of Homo sapiens with 96 samples.

Results

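The genes described here encode the RAS, RAF, MEK and ERK proteins of the cascade that the MEK inhibitor U0126 blocks. They were taken as every probe set of the deposited array table annotated to HRAS, NRAS, ARAF, BRAF, MAP2K1, MAP2K2 or MAPK3 alone. Of these 7 genes, 5 had a probe set, giving 7 probe sets of the 19415 probe sets (11940 genes) tested: HRAS (212983_at), ARAF (201895_at), MAP2K1 (202670_at and 214592_s_at), MAP2K2 (202424_at and 213490_s_at) and MAPK3 (212046_x_at). NRAS and BRAF had no probe set in the annotation used and were not analysed here. Each of the 7 probe sets had a value on all 96 arrays, and no filter removed any.

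RAS proteins are small GTPases that growth factor receptors such as EGFR switch on at the membrane. Active RAS recruits RAF kinases (ARAF is one), RAF phosphorylates the paired kinases MEK1 (MAP2K1) and MEK2 (MAP2K2), and these phosphorylate ERK kinases such as ERK1 (MAPK3). The cascade is driven by phosphorylation, so transcript levels say nothing direct about its activity, and phosphorylation was not measured here. U0126 binds MEK1 and MEK2 and blocks the activation of ERK.

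The cells were MDA-MB-231, a human breast cancer line known for activating mutations in this cascade. Per the labels they were grown to 80% confluence, kept in low serum over 24 h and then exposed to U0126 (10 uM) or to DMSO, its solvent, 30 min ahead of EGF (10 ng/ml), whose addition is 0 h. In 2D culture there were 64 arrays, 32 in each of the series 2D03 and 2D04, and in 3D culture 32 arrays of 1 series, 3D04. The arms were control cells without treatment (18 arrays in 2D, 9 in 3D), EGF alone (14 and 7), DMSO with EGF, called DMSO-EGF (14 and 7), and U0126, which received EGF as well after 0 h (16 and 8); DMSO alone was sampled at 0 h (2 and 1). RNA was taken at 0, 0.5, 1, 4, 8, 12, 24 and 48 h, and the low serum and its duration were common to every group. After 0 h each arm and time had 1 array per series, so a 2D group had 2 arrays and a 3D group had 1. No label says whether arrays of a group came from separate cultures, so the p-values measure the spread between these arrays. The 3D culture was 1 series, so culture and series cannot be told apart. U0126 was the only inhibitor, so a change under it cannot be assigned to MEK alone.

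The values are presumed log2 signals that had been centred probe set by probe set on an unknown reference, so only differences between arrays of the same probe set can be read, and no level is compared between genes. For that reason the defining markers of the cell line could not be read as present or absent. Differences were tested with limma with Benjamini-Hochberg adjustment over all 19415 probe sets, a probe set is said to have passed at an adjusted p below 0.05, and errors are standard errors (SE) of the fit. Times were averaged within windows named early (0.5 with 1 h), middle (4 through 12 h) and late (24 with 48 h). The number of arrays limits the precision.

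A pair of arrays stood apart before any comparison, U0126 at 8 h and at 12 h of series 2D03 (repeat 1). RNA that is partly degraded gives low signal from 5′ ends, and the actin control's 5′ signal minus its 3′ signal was -1.26 and -1.08 on them against -0.36 to 0.31 on the other 94 arrays; for the GAPDH control it was -0.37 to -0.31 against -0.09 to 0.20. On these 2 arrays MAP2K2 213490_s_at read -1.10 and -1.40, ARAF -1.40 and -1.81 and HRAS -0.20 and -0.22. These were the lowest values of each of these 3 probe sets in series 2D03, and the plot of values against the actin measure shows the pair far from the rest. The main results of the middle 2D window are therefore given with and without them. Counts of pathway lists in the fit with a series block are given with them only.

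**Figure D1:**
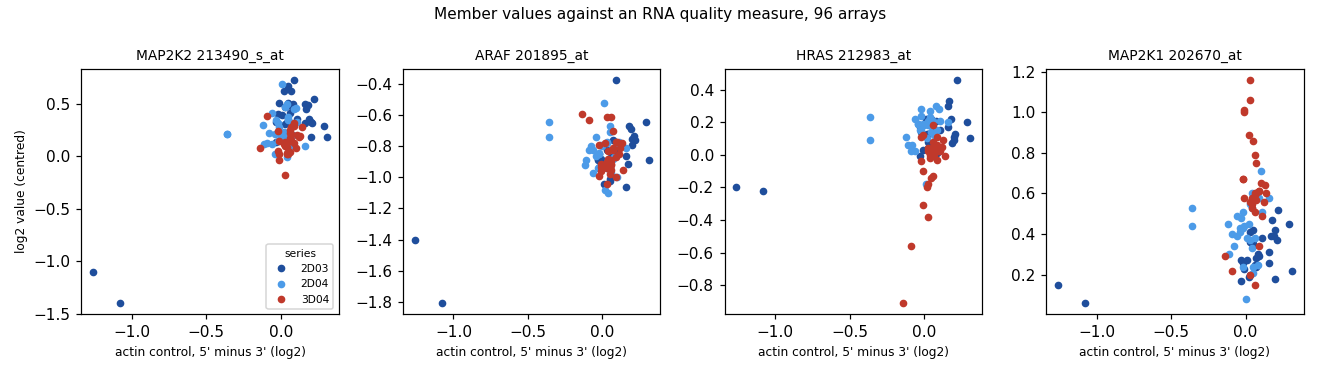
Value of 4 probe sets on each of the 96 arrays (y, log2, centred) against the actin control's 5′ minus 3′ signal (x, log2), coloured by series. The 2 arrays at -1.26 and -1.08 are U0126 at 8 and 12 h of series 2D03, with the lowest values of MAP2K2 213490_s_at and ARAF; MAP2K1 202670_at spreads most within 3D04 at unremarkable actin values.

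The promoters of the genes that passed a test of U0126 in 3D culture are shown here. How alike they are as sequences was not measured. Each is the 250 bases before the outermost start listed by RefSeq on GRCh38.p14, read 5′ to 3′ on the gene's own strand: MAP2K1 on the plus strand of chr15:66386662-66386911, HRAS on the minus strand of chr11:535577-535826, MAP2K2 on the minus strand of chr19:4124123-4124372 and MAPK3 on the minus strand of chr16:30123221-30123470. Capitals mark matches on either strand to the ETS core CCGGAA, the cyclic AMP response core TGACG, the E-box CACGTG, the SP/KLF box GGGCGG and the CCAAT box.
MAP2K1: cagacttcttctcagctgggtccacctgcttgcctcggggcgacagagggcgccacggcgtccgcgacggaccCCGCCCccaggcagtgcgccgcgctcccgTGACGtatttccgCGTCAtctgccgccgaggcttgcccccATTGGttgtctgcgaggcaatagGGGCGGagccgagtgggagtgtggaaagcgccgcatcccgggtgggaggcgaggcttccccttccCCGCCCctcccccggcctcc
HRAS: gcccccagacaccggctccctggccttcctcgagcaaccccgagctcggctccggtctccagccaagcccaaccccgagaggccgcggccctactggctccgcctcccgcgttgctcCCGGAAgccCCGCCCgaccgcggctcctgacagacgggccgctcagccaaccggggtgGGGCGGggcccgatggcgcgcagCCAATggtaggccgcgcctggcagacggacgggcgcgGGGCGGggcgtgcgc
MAP2K2: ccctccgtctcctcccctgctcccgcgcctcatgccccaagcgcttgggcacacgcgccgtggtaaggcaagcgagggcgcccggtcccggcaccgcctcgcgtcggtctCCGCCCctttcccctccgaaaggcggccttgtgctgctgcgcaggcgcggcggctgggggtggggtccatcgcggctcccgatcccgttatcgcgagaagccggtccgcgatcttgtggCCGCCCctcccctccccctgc
MAPK3: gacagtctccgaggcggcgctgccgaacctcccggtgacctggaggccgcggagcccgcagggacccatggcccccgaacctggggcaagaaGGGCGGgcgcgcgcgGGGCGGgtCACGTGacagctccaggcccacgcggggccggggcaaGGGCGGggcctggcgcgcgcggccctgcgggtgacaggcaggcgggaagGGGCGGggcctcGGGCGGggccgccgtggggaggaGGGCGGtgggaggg

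All 4 windows were rich in G and C: 71.2% for MAP2K1, 77.2% for HRAS, 74.0% for MAP2K2 and 80.4% for MAPK3, against a median of 58.0% over 35116 RefSeq promoter windows of that length. GGGCGG occurred 3 times in MAP2K1, 3 times in HRAS, 2 times in MAP2K2 and 6 times in MAPK3, and 42.6% of all windows held it. The MAP2K1 window held TGACG 2 times (21.2% of windows) and CCAAT 1 time (32%). The HRAS window held CCGGAA 1 time (14.5%) and CCAAT 1 time, and the MAPK3 window held CACGTG 1 time (6.3%). The AP-1 site TGANTCA (6.6% of windows) and the full response element TGACGTCA (1.6%), which contains TGACG, were in none of the 4. CCAAT was in the MAP2K1 and HRAS windows and not in the other 2. A match is only a match of letters.

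The first question was whether the cascade's own transcripts responded to U0126 in cells given EGF. In the first hour none of the 7 probe sets passed in either culture (0.0103% of all probe sets passed in 2D and 0.33% in 3D). Differences of the members lay between -0.15 and 0.06 in 2D and between -0.20 and 0.13 in 3D. DUSP6, an ERK phosphatase that ERK induces and that serves here as a check on the inhibitor, already differed by -2.89 to -2.44 on its 3 probe sets in the early 3D window, while neither it nor SPRY4 passed in the early 2D window.

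MAP2K1 202670_at was the member that passed with U0126 in both cultures in the fit without the series block; with the block HRAS and MAP2K2 202424_at passed in late 2D as well. In series 2D03 it read 0.18, 0.15, 0.06, 0.22 and 0.29 at 4, 8, 12, 24 and 48 h with U0126, against 0.26, 0.28, 0.41, 0.42 and 0.47 with DMSO-EGF. In series 2D04 it read 0.24, 0.21, 0.08, 0.24 and 0.38 against 0.43, 0.25, 0.38, 0.60 and 0.71. In 3D04 it read 0.34, 0.20, 0.15, 0.22 and 0.29 against 0.75, 0.59, 0.79, 0.89 and 1.06. U0126 was below DMSO-EGF at all 15 combinations of series and time from 4 to 48 h, a pattern that 3.78% of all probe sets showed. In 3D the U0126 arrays and the DMSO-EGF arrays from 4 h on did not overlap, and in 2D they did when both series were pooled. This separation was not counted over all probe sets.

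**Figure D2:**
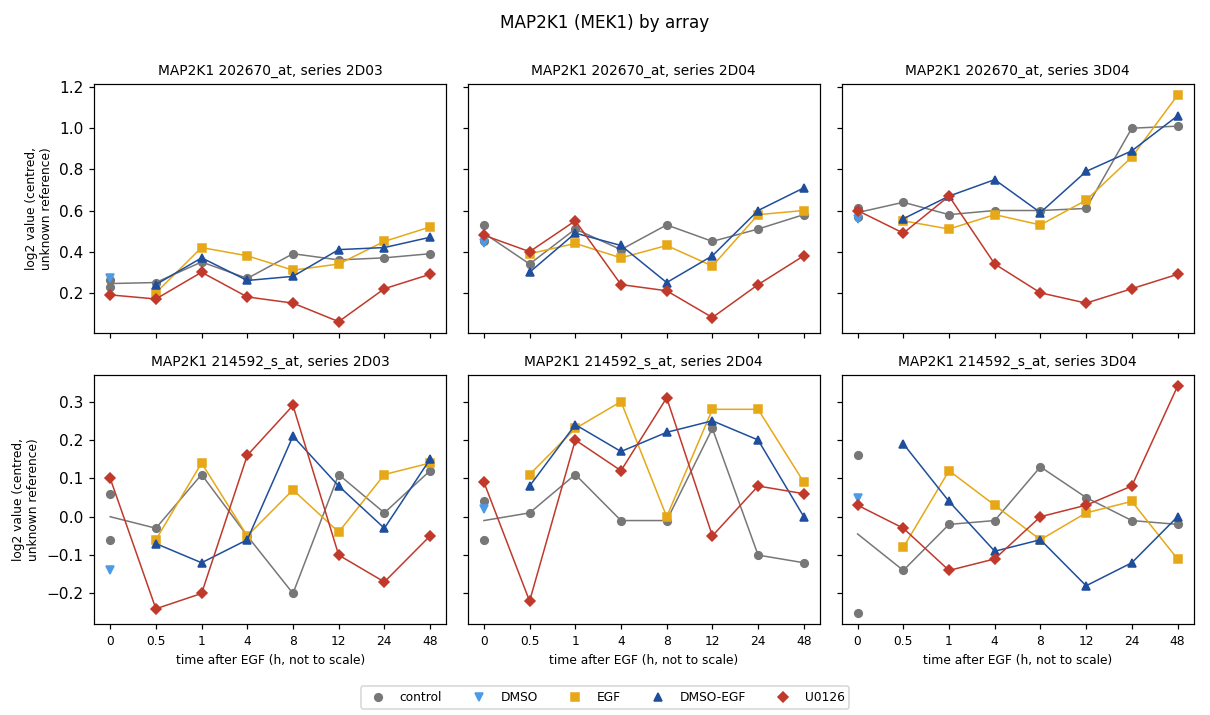
Value of the MAP2K1 (MEK1) probe sets on each array (y, log2, centred) by time after EGF (x, h, evenly spaced), a column per series and a row per probe set; points are single arrays, lines join an arm, and the gray line at 0 h starts from the mean of 2 control arrays. In the upper row the U0126 line drops below the other arms from 4 h on, most in 3D04, where the other arms climb to between 1.01 and 1.16 at 48 h; the lower row shows no such gap.

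In the late 2D window MAP2K1 202670_at differed by -0.27 (SE 0.08, 1.20-fold lower, limma adjusted p = 0.021), and it was the 1 member of 7 that passed, where 11.1% of all probe sets did. With the series as a block the adjusted p was 0.00024. The call was lost without any of 4 single arrays: U0126 at 24 h (repeat 1, adjusted p = 0.058) or at 48 h (repeat 1, 0.076), and DMSO-EGF at 24 h (repeat 2, 0.12) or at 48 h (repeat 2, 0.15), with differences between -0.26 and -0.21. Within 2D04 alone the late difference was -0.35 (adjusted p = 0.0017) and within 2D03 alone -0.19 (adjusted p = 0.19). In the middle 2D window none of 7 passed (6.91% of all did; 2.59% without the 2 arrays of low actin signal). There the difference for MAP2K1 202670_at was -0.18 (SE 0.065, adjusted p = 0.088), with the block adjusted p = 0.0034 (2 of 7, 17.7% of all), and -0.17 without the 2 arrays of low actin signal (adjusted p = 0.38; with the block -0.21 and adjusted p = 0.006, 1 of 7, 7.78% of all). At single 2D times none of 7 passed, where 0%, 0.00515%, 0.438%, 1.53%, 1.77%, 2.11% and 7.08% of all probe sets did at 0.5, 1, 4, 8, 12, 24 and 48 h. With the block the shares were 0%, 0.0361%, 1.17%, 6.15%, 8.5%, 8.46% and 16.1%, and MAP2K1 202670_at passed at 12, 24 and 48 h (-0.33, -0.28 and -0.26) and HRAS at 48 h (-0.34).

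In 3D culture the difference for MAP2K1 202670_at was larger. It was -0.48 in the middle window (SE 0.07, 1.40-fold lower, limma adjusted p = 6.1e-05) and -0.72 in the late window (SE 0.08, 1.65-fold lower, adjusted p = 9.8e-07). It passed with each time left out in turn. The difference between the cultures was itself tested in a joint fit: the effect of U0126 in 3D minus that in 2D was -0.30 in the middle window (SE 0.07, adjusted p = 0.017; 1 member of 7, 2.17% of all probe sets) and -0.45 in the late window (SE 0.09, adjusted p = 0.00035; 1 of 7, 9.3% of all). In the early window none of 7 passed (0.067% of all). Without the 2 arrays of low actin signal the values were -0.31 (adjusted p = 0.017; 1.41% of all) and -0.45 (adjusted p = 2e-04; 2 of 7, 11.8% of all).

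The other MAP2K1 probe set, 214592_s_at, showed none of this. In the late 3D window it read 0.08 and 0.34 with U0126 at 24 and 48 h, against -0.12 and 0.00 with DMSO-EGF, a difference of 0.27 in the opposite direction (SE 0.12, adjusted p = 0.078). It passed in none of the comparisons described here. Its correlation with 202670_at across arrays was 0.23 in 2D03, -0.12 in 2D04 and -0.32 in 3D04 (32 arrays of 1 series each, which share times and arms). In 2D03 it was 0.35 over the 30 arrays left without the 2 of low actin signal. The annotation used gives both as MAP2K1 and does not say which transcripts each reads, so the fall rests on 1 of the gene's 2 probe sets. With the 2 averaged into 1 value, no member passed in the late 2D window or in the middle joint test.

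HRAS, the RAS gene measured, fell with U0126 late in 3D. At 24 and 48 h its values were -0.56 and -0.91 with U0126, against -0.20 and -0.18 with DMSO-EGF, -0.14 and -0.38 with EGF and -0.10 and -0.31 in untreated cells. Both U0126 arrays lay below all 6 others, as was so for 16.5% of all probe sets. The difference from DMSO-EGF was -0.55 (SE 0.08, 1.46-fold lower, limma adjusted p = 3e-05). At 4, 8 and 12 h in 3D the U0126 arrays read 0.06, 0.04 and 0.03 against 0.03, 0.05 and 0.18, and the middle window did not pass (-0.04, adjusted p = 0.76).

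In late 2D arrays HRAS read 0.10 and 0.01 with U0126 in 2D03 at 24 and 48 h, against 0.11 and 0.22 with DMSO-EGF, and 0.14 and -0.18 in 2D04 against 0.27 and 0.28. Of the 4 U0126 arrays, 3 lay below all 4 DMSO-EGF arrays, a pattern not counted over all probe sets. The difference of -0.20 (SE 0.08) did not pass (adjusted p = 0.093), but it did with the block (adjusted p = 0.049, 3 of 7 members and 22.2% of all probe sets) and without the 2 arrays of low actin signal (adjusted p = 0.026, 3 of 7 and 12.4% of all). In the middle 2D window it was -0.15 (adjusted p = 0.19), and -0.01 without those arrays. The late effect in 3D minus that in 2D was -0.34 (SE 0.12, adjusted p = 0.063), or adjusted p = 0.017 without those arrays. Across both cultures HRAS was lower with U0126 in 13 of 15 combinations of series and time, a count for which no share over all probe sets was taken.

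ARAF, the RAF gene measured, passed no test of U0126 over all arrays. In 3D at 24 and 48 h it read -0.63 and -0.59 with U0126 and between -1.04 and -0.78 in the 6 other arrays, without overlap (21.5% of all probe sets had both U0126 arrays above the rest). The late difference from DMSO-EGF was 0.25 in 3D (SE 0.10, 95% interval 0.04 to 0.46, adjusted p = 0.062) and 0.23 in 2D (SE 0.13, interval -0.04 to 0.49, adjusted p = 0.35). The middle 2D difference of -0.18 (adjusted p = 0.40) came to 0.11 without the 2 arrays of low actin signal (adjusted p = 0.75). Within 2D04 alone the late difference was 0.35 (adjusted p = 0.0083), and with the block and without those 2 arrays 0.23 (adjusted p = 0.041, 4 of 7 members, 25% of all). ARAF was higher with U0126 in 11 of the 15 combinations, a count for which no share over all probe sets was taken.

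MAP2K2, the gene of the second MEK kinase, was higher with U0126 in late 3D on 1 of its 2 probe sets. In 3D its probe set 202424_at read 0.27, 0.33, 0.46, 0.63 and 0.36 with U0126 from 4 to 48 h, against 0.18, 0.16, 0.24, 0.19 and 0.20 with DMSO-EGF. U0126 was thus higher at each time, a run not counted over all probe sets. The late difference was 0.30 (SE 0.07, 1.23-fold, limma adjusted p = 0.0021). It was 0.16 without the 24 h arrays (adjusted p = 0.20) and 0.17 after quantile normalization (adjusted p = 0.061). In the middle window it was 0.16 (SE 0.06, adjusted p = 0.076).

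In 2D at 48 h MAP2K2 202424_at read 0.63 and 0.76 with U0126 against 0.44 and 0.45 with DMSO-EGF, and at 24 h 0.33 and 0.44 against 0.12 and 0.16. The groups of 2 arrays did not overlap at either time, but how many of all probe sets separated in this way was not counted. The late difference was 0.25 (SE 0.09, adjusted p = 0.062), with the block adjusted p = 0.023, and adjusted p = 0.025 without the 2 arrays of low actin signal. The effect was 0.05 higher in 3D than in 2D late (95% interval -0.17 to 0.28, adjusted p = 0.87). U0126 was above DMSO-EGF in 13 of 15 combinations, and the 2 others were those 2 arrays. No share over all probe sets was taken for this count.

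The second MAP2K2 probe set, 213490_s_at, followed the first across arrays, with correlations of 0.78 in 2D03 (0.60 without the 2 arrays), 0.69 in 2D04 and 0.45 in 3D04 (32 arrays each). It passed no test of U0126 in the unblocked fit of both series. Within 2D03 alone, which holds the 2 arrays of low actin signal, its middle difference was -1.093 (adjusted p = 0.0035). Its middle 2D difference was -0.48 (SE 0.17, adjusted p = 0.089; with the block adjusted p = 0.041), but 0.03 without the 2 arrays of low actin signal (SE 0.10, adjusted p = 0.98), so that value rests on them. In the late windows it was 0.17 in 2D (SE 0.21, adjusted p = 0.77) and 0.12 in 3D (SE 0.08, adjusted p = 0.26).

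MAPK3, the gene of ERK1, rose with U0126 in 3D. From 4 to 48 h it read 0.03, 0.05, 0.29, 0.40 and 0.41 with U0126, against -0.06, -0.18, -0.07, 0.16 and 0.06 with DMSO-EGF. U0126 was higher at each of these times, a run not counted over all probe sets. Both late arrays lay above all 6 others, as was so for 21.5% of all probe sets. The difference was 0.23 in the middle window (SE 0.06, 1.17-fold, limma adjusted p = 0.014) and 0.30 in the late window (SE 0.07, 1.23-fold, adjusted p = 0.0032). The middle call was lost without 8 h (adjusted p = 0.11) or 12 h (0.21), and the late call without 48 h (0.11), after quantile normalization (0.18, adjusted p = 0.068) and with array weights (adjusted p = 0.055).

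In 2D MAPK3 varied more than the other members. At 24 and 48 h it read -0.34 and -0.11 with U0126 in 2D03 against -0.41 and -0.42, and 0.40 and 0.55 in 2D04 against -0.20 and 0.31. U0126 was higher in each of these pairs, but the 2 series lay far apart, and the late difference of 0.31 (SE 0.24, 95% interval -0.17 to 0.78) did not pass (adjusted p = 0.55; 0.10 with the block). Within 2D04 alone it was 0.42 (SE 0.12, adjusted p = 0.013). The effect in 3D minus that in 2D was -0.01 late (95% interval -0.39 to 0.37).

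**Figure D3:**
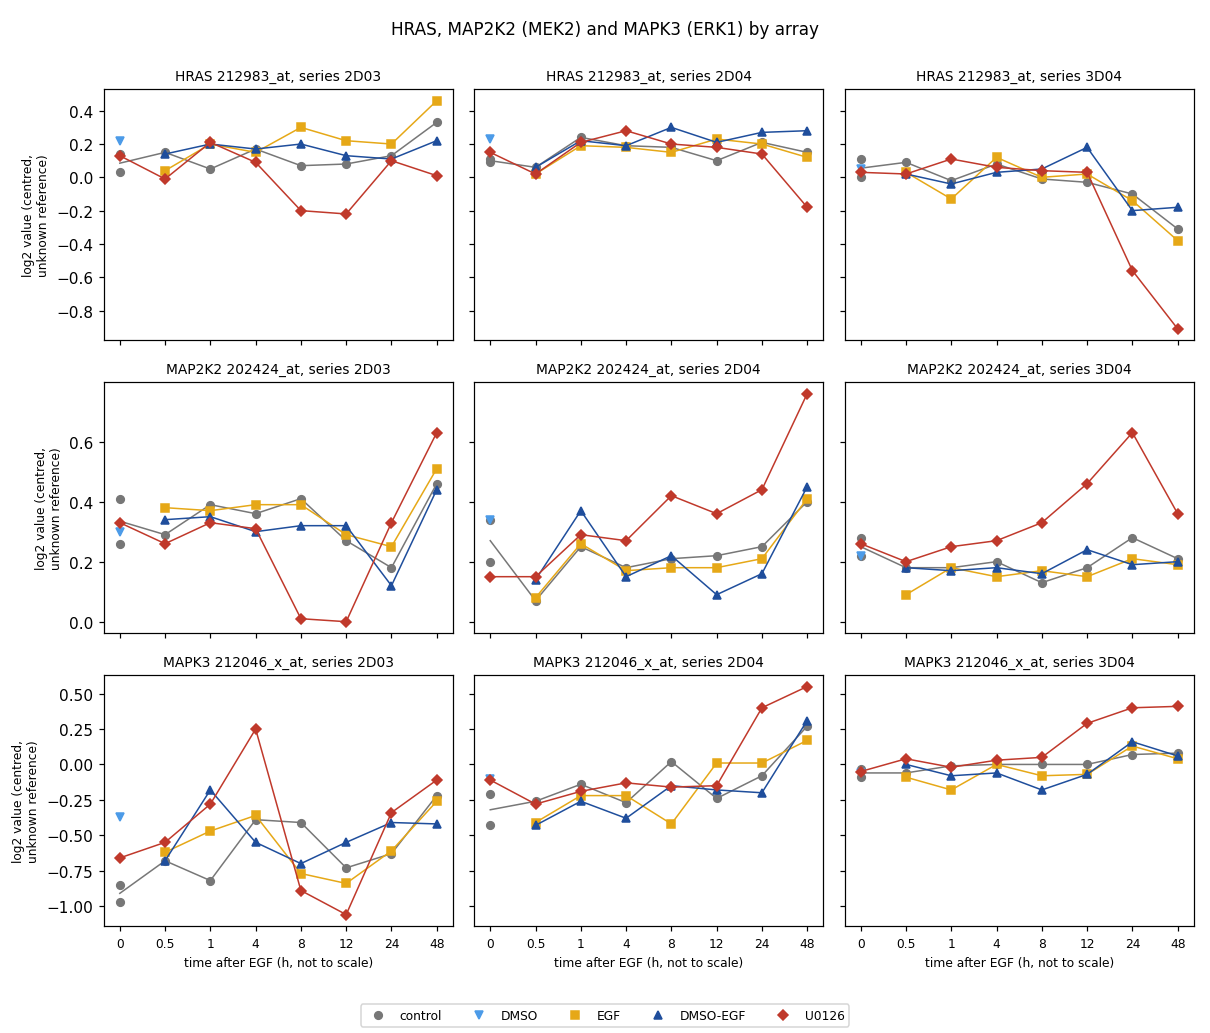
Values of HRAS, MAP2K2 202424_at and MAPK3 (y, log2, centred) on each array by time after EGF (x, h, evenly spaced), a column per series and a row per probe set; points are single arrays and lines join an arm. The U0126 arrays of 3D04 fall to -0.56 and -0.91 for HRAS and lie at or above 0.36 for the other 2 rows at 24 and 48 h, while the U0126 points of 2D03 at 8 and 12 h dip in all 3 rows.

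In all, 2 of 7 members passed in the middle 3D window (14.0% of all probe sets) and 4 of 7 in the late one (36.9% of all): 2 lower (17.2% of all) and 2 higher (19.7%). The median difference of the 7 was 0.25 late in 3D, against 0.03 over all probe sets, and 0.17 late in 2D, against 0.01. With so many probe sets passing in that window, a count of 4 in 7 says little about these genes as a group. The 2 late U0126 arrays of 3D also had the lowest actin 5′ minus 3′ signal of that window, -0.14 and -0.09 against -0.01 to 0.05, and its part in these results was not tested.

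**Figure D4:**
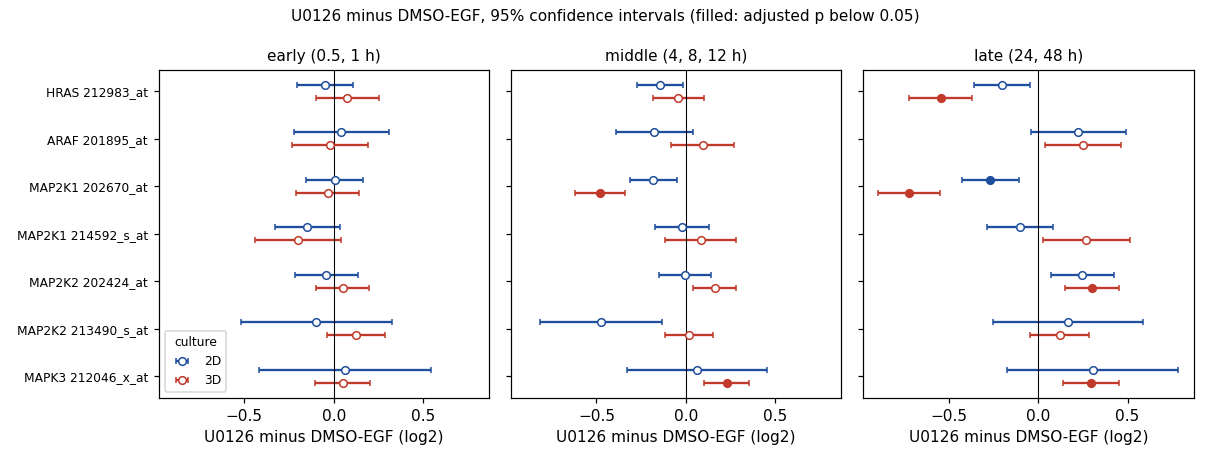
U0126 minus DMSO-EGF (x, log2) for each of the 7 probe sets (y) in the early, middle and late windows; points are fitted differences, bars 95% confidence intervals, blue 2D and red 3D, and filled points have an adjusted p below 0.05. Early intervals all include 0. Late, MAP2K1 202670_at passed in both cultures, and HRAS (lower), MAP2K2 202424_at and MAPK3 (higher) in 3D. The 2D fit shown has no series block, and with the block HRAS and MAP2K2 202424_at passed in late 2D as well.

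The second question was whether EGF itself changed these genes. No such change was detected: none of the 7 probe sets passed for EGF against untreated cells in any window, 2D or 3D, and none of the 19415 did (0% in each). With limma at an unadjusted p below 0.05, 122, 410 and 105 probe sets of all differed in the early, middle and late 2D windows, and 665, 660 and 645 in 3D. Among the members, 1 passed that looser limit in 1 of the 6 windows, the middle one in 3D. Fitted differences of the members ranged from -0.11 to 0.18 in 2D, where the widest 95% intervals reached from -0.53 to 0.52, and from -0.18 to 0.10 in 3D (intervals from -0.31 to 0.34). Changes of a size within a probe set's own interval are not excluded.

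Array by array, MAP2K1 202670_at with EGF minus untreated lay between -0.14 and 0.15 over the 21 combinations of series and time, and 9 were above 0. For HRAS the range was -0.11 to 0.23 (9 of 21 above 0) and for MAP2K2 202424_at -0.09 to 0.09 (9 of 21). MAPK3 ranged more widely, from -0.44 to 0.35 (8 of 21). The signs were thus mixed for these 4 probe sets. They were less even for MAP2K2 213490_s_at, above 0 in 6 of 21 and below 0 at all 7 times in 3D (-0.25 to -0.05), for ARAF, above 0 in 7 of 21, and for MAP2K1 214592_s_at, above 0 in 15 of 21.

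No effect of the solvent was detected. DMSO-EGF minus EGF passed for no member and for none of the 19415 probe sets (0%) in any window; with limma at an unadjusted p below 0.05, 125, 195 and 192 probe sets differed in the early, middle and late 2D windows and 662, 911 and 518 in 3D. For MAP2K1 202670_at the single differences lay between -0.18 and 0.17, while those of U0126 from DMSO-EGF had a median of -0.33 from 4 h on. At 0 h in 2D, after the pre-treatment alone, U0126 minus DMSO passed for no member (0% of all, 154 at an unadjusted p below 0.05), with differences between -0.15 and 0.19.

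The third question was whether the genes drifted over 48 h without treatment. In 3D the untreated arrays of MAP2K1 202670_at read 0.61 and 0.57 at 0 h and 1.00 and 1.01 at 24 and 48 h, a rise of 0.42 (SE 0.08, 1.33-fold, limma adjusted p = 0.0019). HRAS read 0.11 and 0.00 at 0 h and -0.10 and -0.31 late, a difference of -0.26 (SE 0.08, adjusted p = 0.035) that was -0.16 without the 48 h array (adjusted p = 0.39). These were the 2 of 7 members that passed, where 19.5% of all probe sets did; none passed in the early (0%) or middle (0.0927%) 3D window. With U0126, MAP2K1 202670_at was 0.60 at 0 h and 0.22 and 0.29 late, so the gap to the other arms in 3D combined a rise in those arms and a fall under U0126.

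In 2D none of 7 passed for untreated late minus 0 h (3.95% of all), nor in the early (0%) or middle (0.0464%) window. MAPK3 came nearest: in 2D03 it read -0.97 and -0.85 at 0 h and -0.63 and -0.22 late, and in 2D04 -0.43 and -0.21 at 0 h and -0.08 and 0.27 late. The difference was 0.45 (SE 0.24, adjusted p = 0.40), and with the block adjusted p = 0.020 (1 of 7, 12.6% of all). MAP2K1 202670_at rose by 0.10 there (SE 0.08, adjusted p = 0.71).

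The fourth question was whether untreated cells differed between cultures. Over 9 untreated arrays per series, MAPK3 had medians of -0.68 in 2D03 (-0.97 to -0.22), -0.21 in 2D04 (-0.43 to 0.27) and 0.00 in 3D04 (-0.09 to 0.08). MAP2K1 202670_at had medians of 0.35 (0.23 to 0.39), 0.51 (0.34 to 0.58) and 0.61 (0.57 to 1.01). Both thus rose in the order 2D03, 2D04, 3D04, and the 2D series differed between themselves: 2D04 minus 2D03 was 0.48 for MAPK3 (SE 0.06, limma adjusted p = 8.3e-07) and 0.16 for MAP2K1 202670_at (SE 0.05, adjusted p = 0.008), the 2 of 7 that passed, where 48.0% of all probe sets did.

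**Figure D5:**
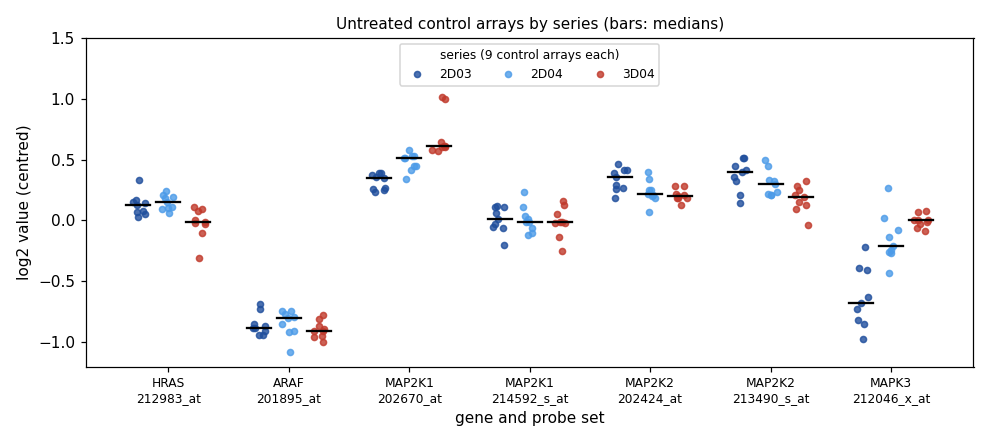
Untreated control arrays of each probe set (x) by series, 9 arrays each (y, log2, centred); points are arrays and bars medians. MAPK3 separates 2D03 from 2D04 (medians -0.68 and -0.21) as well as from 3D04 (0.00), and MAP2K1 202670_at is highest in 3D04, with its 24 and 48 h arrays near 1.

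For 3D minus 2D, 4 of 7 passed (49.2% of all): MAP2K1 202670_at by 0.29 (SE 0.04, 1.23-fold, limma adjusted p = 2.8e-06), MAPK3 by 0.39 (SE 0.05, adjusted p = 1.3e-06), HRAS by -0.16 (SE 0.05, adjusted p = 0.006) and MAP2K2 213490_s_at by -0.16 (SE 0.05, adjusted p = 0.0069). Against 2D04 alone (2 of 7, 29.6% of all) MAP2K1 202670_at (0.21, adjusted p = 0.0013) and HRAS (-0.17, adjusted p = 0.017) passed, while the differences were 0.14 for MAPK3 (adjusted p = 0.073) and -0.13 for MAP2K2 213490_s_at (adjusted p = 0.076). Against 2D03 alone 5 of 7 passed (60% of all), with MAPK3 0.63 higher (SE 0.06, adjusted p = 5e-09) and MAP2K1 202670_at 0.37 higher (SE 0.05, adjusted p = 4.8e-07). ARAF differed by -0.05 (95% interval -0.13 to 0.03) and MAP2K1 214592_s_at by -0.02 (interval -0.12 to 0.08).

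Over all 96 arrays the member with the widest spread was MAPK3 (SD 0.33, above 81.5% of probe sets), followed by MAP2K2 213490_s_at (0.28), MAP2K1 202670_at (0.21), HRAS (0.19) and ARAF (0.17). MAP2K1 214592_s_at (0.14) and MAP2K2 202424_at (0.13) were above 21.9% and 18.6% of probe sets.

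The genes most like each member were sought over the 64 2D arrays after removing series means, from the probe set of each gene with the largest SD. These correlations describe arrays that share arms, times and, for some genes, the 2 arrays of low actin signal. For MAP2K1 202670_at they were FEZ2 (Pearson r = 0.81), SOX9, a transcription factor gene (0.76), and BICD2, a dynein adaptor gene (0.76), and without the 2 arrays 0.79, 0.75 and 0.74. For MAPK3 they were STUB1 (0.76), NUCB1 (0.75) and CAPN1 (0.75), and without the 2 arrays 0.75, 0.74 and 0.72. For the others the likeness fell when the 2 arrays were left out. The most alike gene went from 0.90 to 0.68 for MAP2K2 213490_s_at (HMG20B), from 0.79 to 0.58 for ARAF (PCBP2) and from 0.74 to 0.60 for HRAS (YBX1). The other genes were DHPS (0.89 to 0.61) and ENO1 (0.89 to 0.45) for MAP2K2, OTUB1 (0.79 to 0.51) and CLPTM1 (0.77 to 0.40) for ARAF, and PSMC3 (0.73 to 0.62) and HSPBP1 (0.73 to 0.59) for HRAS.

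The rest of the pathway was sought in 7 lists, of whose 59 genes 53 had a probe set. The other 6 were not analysed here. The list of other RAF and ERK paralogs had 2 genes and 0 probe sets, so it could not be read. RAF and ERK genes of this cascade were thus read from ARAF and MAPK3 alone. DUSP6 and SPRY4, feedback inhibitors that ERK induces, had 4 of their 5 probe sets lower with U0126 in the middle and late windows of both cultures, with or without the 2 arrays of low actin signal. Of all probe sets, 6.91% and 11.1% passed in those 2D windows and 14.0% and 36.9% in those 3D windows. SPRY4 221489_s_at differed by -2.76 in late 2D (SE 0.21, limma adjusted p = 1.8e-12) and by -2.235 in late 3D (SE 0.22, adjusted p = 9.5e-08). Each of these differences was larger than any of the cascade's own genes.

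Among receptor and adaptor genes upstream of RAS, 6 of 22 probe sets were lower and 3 higher with U0126 late in 3D (list median -0.13, all probe sets 0.03), where 17.2% of all probe sets were lower and 19.7% higher. With 36.9% of all passing in either direction, 9 of 22 is near the background. EGFR 201984_s_at fell by 0.995 (SE 0.09, limma adjusted p = 7.6e-08) and the adaptor GRB2 fell by 0.67 (SE 0.10, adjusted p = 1.7e-05), while the adaptor SHC1 214853_s_at rose by 0.54 (SE 0.08, adjusted p = 1.3e-05). None of the 22 passed in the late 2D window (11.1% of all did), and 2 were lower with the block (22.2% of all passed). In the middle 2D window 4 were lower, of SOS2, SHC1 and PTPN11, and none was without the 2 arrays of low actin signal. Of all probe sets 6.91% passed there, and 2.59% without those arrays. With the block and those arrays kept, 11 were lower, where 17.7% of all probe sets passed. The list was not counted with the block and without those arrays.

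Of 16 probe sets of other RAS family members and regulators, 3 were lower and 3 higher late in 3D (list median 0.08; 17.2% and 19.7% of all). RRAS2, a RAS relative, was lower on both its probe sets (-0.76 and -0.83), and MRAS was higher (0.48, SE 0.11). NF1, which switches RAS off, was higher on 210631_at and 212678_at (0.31 and 0.42), while its other probe sets did not pass there. RASA2, another gene of a RAS-inactivating protein, fell by 0.58 in late 2D (SE 0.16, limma adjusted p = 0.0091) and fell by 0.75 in late 3D (SE 0.16, adjusted p = 0.00085). With the block, 3 were lower and 2 higher in late 2D (22.2% of all passed), and 1 was lower without it (11.1% of all passed).

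Of 31 probe sets of scaffolds and modulators, 7 were lower and 3 higher late in 3D (list median -0.04; 17.2% and 19.7% of all). HSP90AA1, a chaperone of RAF, was lower on 4 probe sets (-0.63 to -0.40), and PEBP1, a RAF inhibitor, was higher on 2 (0.45 and 0.35). LAMTOR3, a scaffold that binds MEK1 and ERK1, was higher in late 3D (0.37, SE 0.08, limma adjusted p = 0.00094) and late 2D (0.22, SE 0.07, adjusted p = 0.029). It was the 1 of 31 that passed in late 2D, where 11.1% of all probe sets did. With the block 3 were lower and 3 higher, where 22.2% of all passed.

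Of 9 probe sets of kinases that ERK activates, 4 were higher and 1 lower late in 3D (list median 0.26; 19.7% and 17.2% of all). MKNK1, whose kinase phosphorylates the translation factor eIF4E, rose in both cultures, by 0.53 in late 2D (SE 0.09, limma adjusted p = 2.2e-05) and by 0.39 in late 3D (SE 0.07, adjusted p = 0.00025). MKNK2 (0.65, SE 0.12) and both probe sets of RPS6KA2 (0.60 and 0.72) were higher in late 3D, and RPS6KA4 was lower (-0.54, SE 0.08). In late 2D MKNK1 was the 1 of 9 that passed (11.1% of all did), and with the block 2 passed (22.2% of all).

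Genes of the other MAP kinase cascades, mainly of the JNK, p38 and ERK5 arms, had the largest late differences of the lists after DUSP6 and SPRY4. Late in 3D 15 of 35 probe sets were lower and 7 higher (list median -0.08, with 17.2% and 19.7% of all). Late in 2D 6 were lower and 3 higher, where 11.1% of all probe sets passed. With the block 8 were lower and 5 higher, where 22.2% of all passed. MAPK6 207121_s_at, outside those arms, differed by -0.86 in late 3D (SE 0.07, limma adjusted p = 6.1e-09). MAP3K5, the ASK1 kinase of the stress arm, fell by 1.175 in late 2D (SE 0.16, limma adjusted p = 1e-06) and fell by 1.495 in late 3D (SE 0.08, adjusted p = 1.6e-11) on 203836_s_at. MAP2K3 207667_s_at, of a p38 activator, differed by -0.87 and -0.81 in late 2D and 3D, and MAPK13 210058_at, of a p38 kinase, by -0.57 and -1.38. MAP2K6, also a p38 activator, rose by 0.60 in late 2D (SE 0.12) and 1.38 in late 3D (SE 0.14), and MAP2K5, of the ERK5 activator, rose on 2 probe sets in 2D (0.49 and 0.48) and 3 in 3D (0.60 to 0.83). In the middle 2D window 7 of the 35 were lower, against 2 without the 2 arrays of low actin signal, both of MAP2K3. Of all probe sets 6.91% passed there, and 2.59% without those arrays. With the block and those arrays kept, 13 were lower and 1 higher, where 17.7% of all probe sets passed. This list too was not counted with the block and without those arrays.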

How the data were processed

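The deposited table held 22930 probe sets on 96 Affymetrix arrays hybridised with biotin-labelled total RNA. Its deposited values are taken as log2, since RMA, named per the submitters' processing notes, gives log2 output; log base, centring and software version are not given in the sources used here. Array medians lay between -0.06 and 0.03 and values between -5 and 5.7, and folds assume log2. Of the probe sets, 524 were array controls, 125 had several symbols, 2866 others had none, and 19415 with 1 symbol in the platform annotation were tested.

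Differences were fitted with limma 3.58.1 in R 4.3.3 (lmFit, then eBayes with trend), and p-values were adjusted by Benjamini-Hochberg. The 2D model held 31 group means and left 33 residual degrees of freedom. In 3D, with 1 array per arm and time, a time term and an arm effect per window were fitted, so times of a window stood in for repeats. Untreated arrays were fitted with time and series, and a joint fit tested differences between cultures. The label 05h was read as 0.5 h and UO126, on 2 labels, as U0126.

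The members and gene lists were chosen with earlier results of these data known. Named genes were all member probe sets, up to 4 called genes per list and comparison by smallest adjusted p, DUSP6, SPRY4, and the 3 most alike genes per member. Repeat numbers follow the series label. Between any 2 of the 31 2D groups (465 pairs), deviations of same-numbered arrays from the group mean correlated at 0.20 to 0.80 (median 0.61), so the numbers pair the samples and a fit with this block is given where it changes a call. The procedure was tested on simulated data. Leaving out the 2 arrays of low actin signal was chosen after seeing the data. Promoter windows came from RefSeq.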

Additional observations from a re-analysis of the deposited data

Results flagged for a closer look

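A pair of results was singled out because the effect of U0126 differed between the cultures by a test of the difference itself, an interaction term in the limma fit of all arrays after 0 h. Both concern MAP2K1 202670_at: U0126 minus DMSO-EGF in 3D minus the same difference in 2D was -0.298 in the middle window (SE 0.07, adjusted p = 0.017) and -0.453 in the late window (SE 0.09, adjusted p = 0.00035). The late 3D difference was negative at both times. Since 3D was 1 series, culture and series cannot be told apart, and the gene's other probe set gave 0.11 and 0.37 with adjusted p-values of 0.74 and 0.11.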

How the results depend on the processing

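Results are counts of the 7 member probe sets that passed. With the replicate block, 2 passed in the middle 2D window of U0126 (0 without it), 3 in the late one (1), 4 over single 2D times (0) and 1 for untreated late 2D minus 0 h (0). It changed no other member's call in a window. Over all probe sets the block moved the counts from 1341 to 3437, 2157 to 4301 and, for untreated late 2D, 766 to 2446; leaving out the 2 arrays moved the middle count to 502. Series 2D03 alone gave 2 in the middle and 0 in the late window, where 3703 and 2099 of all 19415 probe sets passed. For 2D04 alone the counts were 1 and 5, where 1786 and 5019 of all passed, and 1 for untreated late minus 0 h. Averaging the probe sets of a gene gave 0 for late 2D, 1 over single times, 1 for 2D04 minus 2D03 and 0 for the middle joint test. Keeping only probe sets of SD above the median gave 2 for late 3D and 1 for untreated late 3D. That filter left out HRAS, ARAF, MAP2K1 214592_s_at and MAP2K2 202424_at, so these members could not pass. Median centring gave 2 for late 2D and 2 for the late joint test; quantile normalization gave 1 for middle 2D; array weights gave 0 for late 2D and 1 over single times. For late 3D both gave 3 (4 without them), with MAPK3 not passing under either and MAP2K2 202424_at not under quantile normalization. Without the 2 arrays of low actin signal there were 3 in late 2D (12.4% of all), 2 over single times and 2 in the late joint test (11.8%). With the block as well there were 1, 4, 6 and 1 for middle 2D (7.78% of all), late 2D (25%), single times and untreated late 2D. Against 2D04 alone, 2 differed by culture. MAP2K2 213490_s_at in middle 2D reversed to 0.14 in 2D04 alone, 0.03 without the 2 arrays and 0.081 with the block as well. Leaving out 1 array or time gave 0 to 1 in late 2D, 0 to 3 in middle 2D, 1 to 2 in middle 3D, 3 in late 3D, 1 to 3 for untreated late 3D, 4 to 5 by culture and 2 to 3 between 2D series; other counts stayed at 0. Where no reason is given, the cause was not tested. Where no share or count over all probe sets is given for a setting, a shift in the member count cannot be read as a result about the members. Scaling moved the median of all probe sets by under 0.1.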

Other observations

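Outside the members, untreated cells of the 2 cultures differed most, among the listed pathway genes, at RPS6KA2, which encodes a ribosomal S6 kinase activated by ERK: its 2 probe sets differed by -1.737 (SE 0.10) and -0.98 (SE 0.08) in 3D minus 2D, with limma adjusted p-values of 2.6e-12 and 7.1e-10. MAP3K5 was higher in 3D by 1.02 and 0.88 and MAPK13 by 0.74 and 0.48, and both of these genes fell with U0126 in late 2D and 3D. Of 22 probe sets of receptors and adaptors, 13 were lower in 3D and none higher, where 49.2% of all probe sets passed in either direction and 48% between the 2D series, among them GRB2 (-0.42, SE 0.05) and EGFR on 5 probe sets (-0.63 to -0.14), while DUSP6 and SPRY4 were higher on 4 of 5 (0.42 to 0.74). Culture and series cannot be told apart in these values.

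Over 48 h without treatment, RRAS, of a RAS relative, rose in both cultures, by 0.93 in 2D (SE 0.27, limma adjusted p = 0.038) and by 0.88 in 3D (SE 0.15, adjusted p = 0.00055). SPRY4 rose by 0.81 in 2D (SE 0.21, adjusted p = 0.016) and DUSP6 208893_s_at by 0.87 in 3D (SE 0.29, adjusted p = 0.044).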
